A study of Mus musculus with 9 samples.

Results

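A set of 6 oxidase genes was followed through the nuclei of mouse epididymal adipose tissue: Maob, Maoa and Aoc3, which encode amine oxidases, and Cyp2e1, Aox1 and Aox3, which encode oxidases of foreign compounds and aldehydes. All 6 were found by symbol among the 32285 genes of each matrix. The list of symbols was selected on measured UMI levels of these same libraries, with the adipocyte ratios of Maob and Cyp2e1 between diets among the values known, so those ratios are a description and none of the values below is a test. Gene expression was measured by single-nucleus RNA sequencing in male C57BL/6J mice, with 1 library per diet group and 5 mice pooled in each. There is therefore no replicate error: every interval is a 95% interval of counting error only (exact Poisson for a level, exact binomial for a share, exact conditional for a ratio), and the spread between mice within a diet was not measured.

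C, CC and CCC were chow libraries from mice of 18, 26 and 39 weeks. H mice had been given high-fat diet (HFD) for 12 weeks (18 weeks old) and HH mice for 25 weeks (31 weeks old). HC and HHC mice were returned to chow for 8 weeks after 12 and 25 weeks of HFD and were 26 and 39 weeks old. CCH mice had chow up to 26 weeks of age and then met HFD for the first time, for 4 weeks. HCH mice met it again for 4 weeks after 12 weeks of HFD and 8 weeks of chow. Both were 30 weeks old, and the weeks given for HCH leave out the time before its first HFD. The series text names the control a low fat diet and the sample labels name it chow. By the methods of the study, control mice had a low-fat diet while the others had HFD. Both groups then had a standard chow diet during weight loss. C was therefore harvested on the low-fat diet, and CC, CCC, HC and HHC on standard chow. The word chow stands for either diet in this text. Sequencing set S075 held C, H, HH, CCH and HCH, and S019 held CC, CCC, HC and HHC. The comparisons of H with C, HC with CC, HHC with CCC and HCH with CCH lie within a set. That of HH with CC crosses sets and sets mice of 31 weeks against mice of 26 weeks. Its control was on standard chow at harvest, where C was on the low-fat diet. HH with C is therefore given beside it for the members described. HH with C lies within a set but has a wider gap in age, mice of 31 weeks against mice of 18 weeks.

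Amine oxidases remove the amino group from their substrates and release an aldehyde, ammonia and hydrogen peroxide. Maoa and Maob encode the monoamine oxidases of the outer mitochondrial membrane, which break down noradrenaline, serotonin, dopamine and trace amines. Aoc3 encodes a copper amine oxidase of the cell surface, abundant on fat and smooth muscle cells and also known as vascular adhesion protein. Cyp2e1 encodes a cytochrome of the endoplasmic reticulum that oxidizes ethanol, acetone and small solvents and is best known from liver. Aox1 and Aox3 encode cytosolic aldehyde oxidases, enzymes that carry a molybdenum cofactor and act on aldehydes and on many drugs.

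The positions are those of GENCODE vM21 on GRCm38, the mm10 assembly of the deposited matrices. Maoa (ENSMUSG00000025037) spans chrX:16619698-16687818 on the plus strand and Maob (ENSMUSG00000040147) spans chrX:16709282-16817366 on the minus strand, so the 3′ ends of this pair face each other across 21.5 kb. Aox1 (ENSMUSG00000063558, chr1:58029931-58106413) and Aox3 (ENSMUSG00000064294, chr1:58113130-58200698) follow each other on the plus strand with 6.72 kb between them. Cyp2e1 (ENSMUSG00000025479) lies at chr7:140763739-140774987 and Aoc3 (ENSMUSG00000019326) at chr11:101330605-101341938, both on the plus strand. Reads from introns were counted, and the members differ in the length of their loci (11.2 kb for Cyp2e1, 108 kb for Maob), so levels were compared between nuclei and libraries and never between genes.

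Of the members, 4 had a promoter sequence in the RefSeq table used (build GRCm38.p6, 250 bases before to 50 after the start). Of these, 3 are shown: that of Cyp2e1, the member with the widest range over the libraries, and those of Aox1 and Aox3. These neighbours had their highest medians in different cell classes, though both were read from progenitor-like nuclei. Capitals mark the TATA box (searched as TATAAA), the CCAAT box (CCAAT), the GC box (GGGCGG) and the nuclear receptor half-site (AGGTCA) on either strand, and no match overlaps another here.
Cyp2e1, chr7:140763569-140763868, plus strand: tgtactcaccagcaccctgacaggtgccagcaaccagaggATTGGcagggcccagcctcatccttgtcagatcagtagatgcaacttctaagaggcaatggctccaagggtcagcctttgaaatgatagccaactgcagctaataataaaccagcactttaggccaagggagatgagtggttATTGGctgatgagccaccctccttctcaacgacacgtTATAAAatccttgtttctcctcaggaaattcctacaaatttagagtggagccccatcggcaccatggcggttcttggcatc
Aox1, chr1:58029719-58030018, plus strand: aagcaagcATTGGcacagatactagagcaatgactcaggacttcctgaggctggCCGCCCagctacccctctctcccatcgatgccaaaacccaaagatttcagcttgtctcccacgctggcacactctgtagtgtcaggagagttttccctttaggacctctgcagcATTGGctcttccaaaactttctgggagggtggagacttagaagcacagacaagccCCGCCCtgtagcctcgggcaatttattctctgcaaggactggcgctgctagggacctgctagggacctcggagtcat
Aox3, chr1:58112886-58113185, plus strand: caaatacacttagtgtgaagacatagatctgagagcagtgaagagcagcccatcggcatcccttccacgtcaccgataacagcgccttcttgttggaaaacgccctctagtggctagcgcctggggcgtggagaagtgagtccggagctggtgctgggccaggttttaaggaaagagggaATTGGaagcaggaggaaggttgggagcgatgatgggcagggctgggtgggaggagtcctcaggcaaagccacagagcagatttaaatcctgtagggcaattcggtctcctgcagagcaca
The Cyp2e1 window holds 1 TATAAA and 2 CCAAT. The Aox1 window holds 2 CCAAT and 2 GGGCGG, and the Aox3 window holds 1 CCAAT. Among 32851 promoter windows of this length, 13.6% hold TATAAA, 37.4% hold CCAAT, 35.7% hold GGGCGG and 16.3% hold AGGTCA. Cyp2e1 has 4 CpG in its window, Aox1 has 7 and Aox3 has 10, beside a median of 7 over all windows. A match of letters is a description of the window.

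The matrices held 91687 barcodes and 73209 nuclei were kept (4007 to 12561 per library). Any pair of libraries shared 5 to 41 of these barcodes. Nuclei were assigned to 12 cell classes by a gate on 8 markers per class, which left 22.9% to 42.8% of the nuclei of a library unassigned. Adipocyte-like nuclei numbered 2563 in C, 2102 in CC and 1740 in CCC among chow libraries, 181 in H and 410 in HH under HFD, 871 in HC and 424 in HHC back on chow, and 712 in CCH and 345 in HCH under late HFD, and all 8 adipocyte markers were detected in them in each library. The gate did not work alike in all libraries. Only 35.5% of the adipocyte-like nuclei of CC and 20.9% of those of CCC also lay in a cluster named from adipocyte markers, against 80.9% to 97.3% in the other 7 libraries. The 8 macrophage markers summed to 973 CPM (UMIs of a gene per 1000000 UMIs of the class) in adipocyte-like nuclei of CC and 789.5 in CCC (253 to 615 elsewhere), and the 8 endothelial markers to 413 and 347 CPM (19.1 to 192 elsewhere). For nuclei that pass the gate and also lie in an adipocyte-named cluster, the macrophage sums of CC and CCC were 550.1 and 429 CPM. All 8 macrophage markers had UMIs in the adipocyte-like nuclei of each library, and the part of other cells' RNA in the levels below was not tested. Diet ratios of a member against CC or CCC are therefore given for both sets of nuclei where they are described, the second being added after the data were examined.

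The 6 genes fell into different cell classes. Aox1, Aoc3 and Cyp2e1 were highest in adipocyte-like nuclei, Maob in adipocyte-like, progenitor-like and mast cell-like nuclei, Aox3 in progenitor-like nuclei, and Maoa was spread over most stromal classes and macrophages. Medians over libraries, each class from 20 nuclei on, put Aox1 at 413 CPM in adipocyte-like nuclei and 153 CPM in progenitor-like nuclei. Aox1 was higher in adipocyte-like than in progenitor-like nuclei in 9 of 9 libraries, with an interval clear of 0 in all 9. The same count was reached by Aoc3, with medians of 224 and 46.3 CPM, and by Cyp2e1, with medians of 215 and 51.5 CPM.

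**Figure D1:**
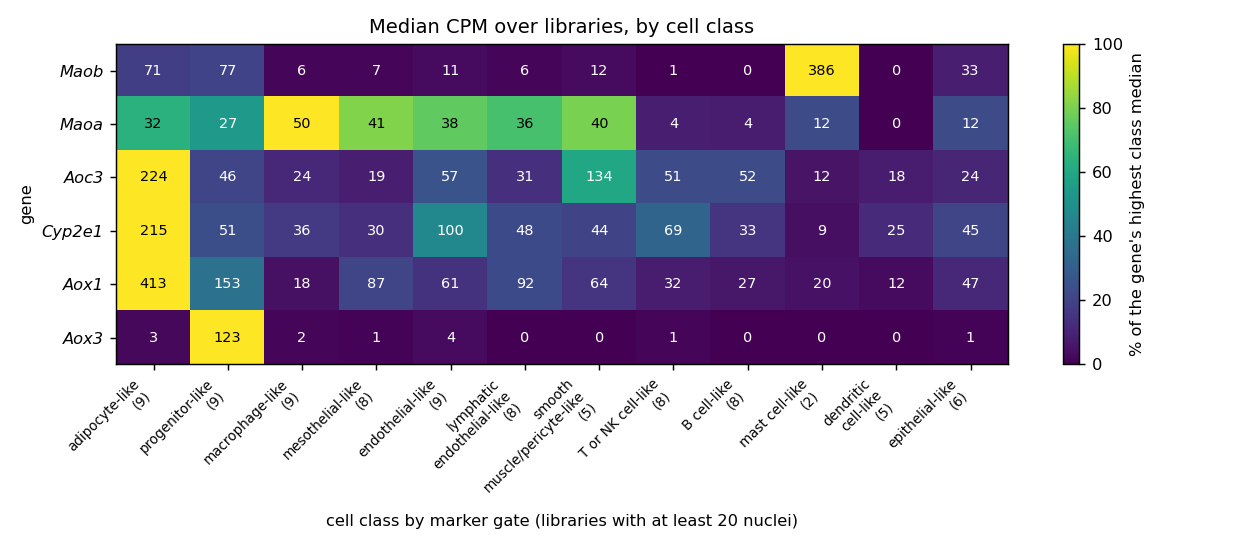
Median CPM of each gene over libraries, by cell class from the marker gate; rows are genes, columns are classes with the number of libraries that had at least 20 nuclei of the class, numbers are CPM and colour is the percent of each gene's own highest class median. Adipocyte-like nuclei hold the highest median of Aoc3, Cyp2e1 and Aox1, progenitor-like nuclei that of Aox3, mast cell-like nuclei that of Maob (2 libraries) and macrophage-like nuclei that of Maoa.

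Aox3 followed the opposite order to its neighbour. Its median was 123 CPM in progenitor-like nuclei and 2.81 CPM in adipocyte-like nuclei, and the progenitor-like level was the higher in 9 of 9 libraries with intervals clear of 0. In macrophage-like nuclei it was 1.88 CPM, so the adipocyte-like level did not stand apart from that of a class not known for the gene (intervals clear of 0 in 0 of 9 libraries in either direction). The 115 and 83 Aox3 UMIs of adipocyte-like nuclei in CC and CCC (15.7 and 17.8 CPM) came down to 26 and 8 UMIs (6.86 and 4.54 CPM) where clusters had to match. Progenitor-like nuclei held 75.2% of the Aox3 UMIs of their library in C, 21.6% in CC and 69.1% in CCC among chow libraries, 92.7% in H and 92.0% in HH under HFD, 76.5% in HC and 86.8% in HHC back on chow, and 86.6% in CCH and 94.4% in HCH under late HFD. CC was the exception, with 104 Aox3 UMIs in progenitor-like nuclei and 115, or 23.9%, in adipocyte-like nuclei.

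For Maob, adipocyte-like and progenitor-like nuclei had medians of 71.1 and 77.3 CPM, beside 5.97 CPM in macrophage-like and 7.37 CPM in mesothelial-like nuclei. With clusters alone the first 2 medians were 83.2 and 79.9 CPM, so their order was not fixed. The adipocyte-like level was above the progenitor-like one with an interval clear of 0 in 3 libraries and below it in 2. Mast cells, which store histamine and other amines, formed a class of at least 20 nuclei in 2 libraries. Maob stood at 254 CPM (127 to 455; 11 UMIs in 29 nuclei) in those of H and at 518 CPM (416 to 637; 90 UMIs in 135 nuclei) in those of HH, above the adipocyte-like level in both. In HH these nuclei carried 15.2% (12.4 to 18.3) of all Maob UMIs, nearly as many as the adipocyte-like nuclei, which carried 17.7% (14.7 to 21.0).

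Maoa was the most evenly spread member. Its class medians were 50.3 CPM in macrophage-like, 40.8 in mesothelial-like, 38.0 in endothelial-like, 32.2 in adipocyte-like and 27.0 in progenitor-like nuclei, and 4.31 and 3.81 in T or NK cell-like and B cell-like nuclei. The macrophage-like level exceeded the progenitor-like level in 9 of 9 libraries, in 8 of them with an interval clear of 0. Aoc3 had its second place in smooth muscle or pericyte-like nuclei, at a median of 134 CPM over the 5 libraries with enough nuclei (104 to 187), and the adipocyte-like level exceeded it in all 5, with an interval clear of 0 in 1.

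**Figure D2:**
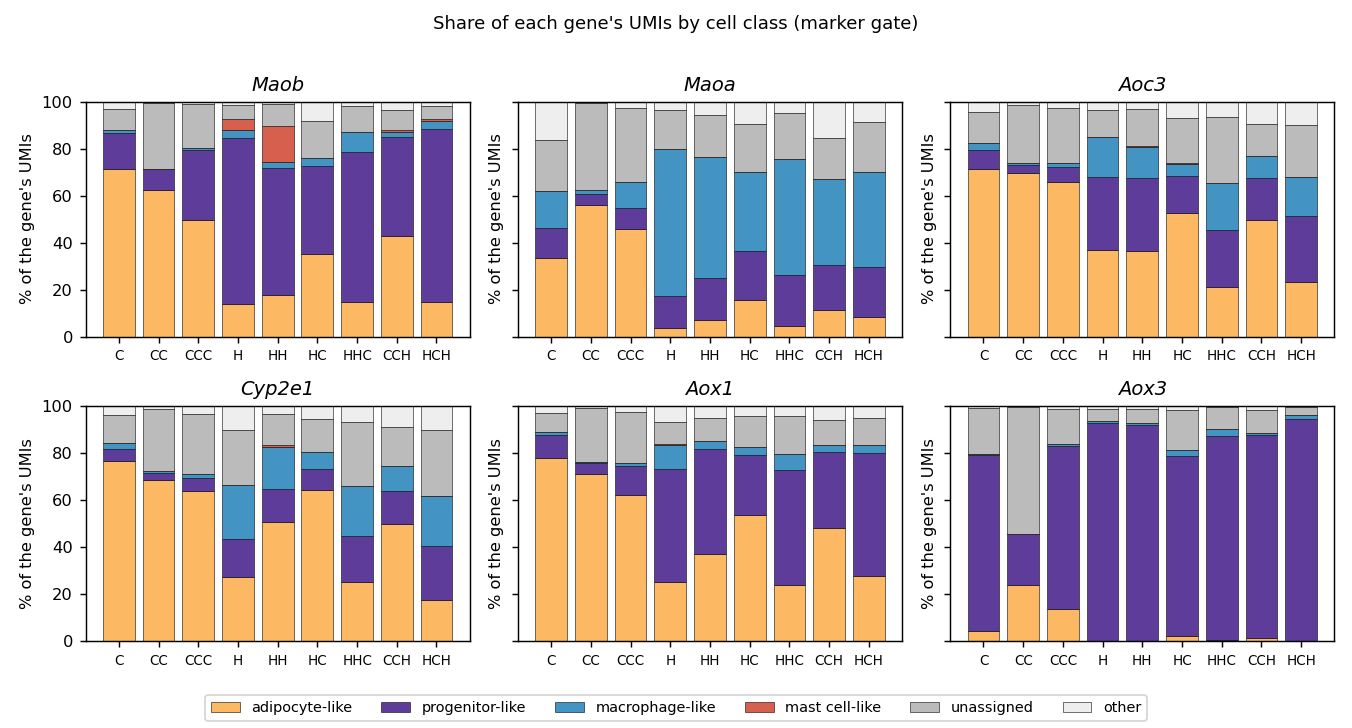
Share of each gene's UMIs (percent, y axis) that lay in each cell class of the marker gate, for the 9 libraries (x axis). Adipocyte-like nuclei held 71.2% of the Maob UMIs in C and 14.0% in H, while progenitor-like nuclei held most Aox3 UMIs in 8 of the 9 libraries.

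The classes differed in size between diets, and so did the nuclei a gene was read from. Adipocyte-like nuclei were 22.9% of those kept in C and 1.88% in H, and their share of the Maob UMIs went from 71.2% (69.6 to 72.8) to 14.0% (9.95 to 18.9), while progenitor-like nuclei held 15.3% and 70.4%. For Maoa the macrophage-like share was 15.7% in C and 62.5% in H. Over whole libraries Cyp2e1 was at 943 CPM in C and 8.32 CPM in H, and Maob at 101 and 9.86 CPM; at that scale fewer adipocytes and less RNA per adipocyte cannot be told apart, and the ratios below are within a class.

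Cyp2e1 showed the widest range in adipocyte-like nuclei. Its level was 1862 CPM (1838 to 1886) in C, 709 in CC and 215 in CCC on chow, 73.9 (56.1 to 95.5) in H and 133 in HH on HFD, 439 in HC and 78.4 in HHC after the return to chow, and 819 in CCH and 140.0 in HCH at the end of late HFD. The chow libraries themselves ranged from 1862 CPM in the youngest to 215 in the oldest, and H and HHC were lowest. C, the youngest, lies in another sequencing set than CC and CCC and was harvested on the low-fat diet. Age, set and control diet cannot be told apart between C and those libraries. In the order of levels, HCH and HH did not differ beyond counting error, nor did HHC and H; the other neighbours did. With clusters required to match, CC rose to 846 CPM and no longer stood apart from CCH at 844.

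Cyp2e1 was lower in the first library of all 5 comparisons: by a log2 ratio of −4.66 (−5.05 to −4.28) in H with C, −2.42 (−2.61 to −2.23) in HH with CC, −0.69 (−0.78 to −0.61) in HC with CC, −1.46 (−1.73 to −1.19) in HHC with CCC and −2.55 (−2.75 to −2.35) in HCH with CCH. With clusters matched the values were −4.66, −2.66, −0.88, −1.63 and −2.67. HH with C, within a sequencing set but with mice of 31 and 18 weeks, gave −3.81 (−4.00 to −3.63). The chow libraries against each other gave −1.72 (−1.82 to −1.62) for CCC with CC, larger than the ratio of HC with CC. CCH with CC, which crosses sequencing sets and sets mice of 30 weeks against mice of 26 weeks, gave 0.21 (0.14 to 0.27), or −0.00 (−0.08 to 0.07) with clusters matched. After weight loss, HHC was below HC by a log2 ratio of −2.48 (−2.75 to −2.22), libraries from mice that also differed in age (39 and 26 weeks).

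The share of adipocyte-like nuclei with a Cyp2e1 UMI, each nucleus thinned to 1000 UMIs, was 76.0% (74.3 to 77.7) in C, 45.5% in CC and 17.3% in CCC among chow libraries, 5.65% (2.74 to 10.1) in H and 6.93% in HH under HFD, 29.6% in HC and 6.81% in HHC back on chow, and 46.2% in CCH and 10.3% in HCH under late HFD. The unthinned shares were 93.4% in C and 12.2% in H, at median depths of 4649 and 4613 UMIs. Thinning left out 146 of 2563 nuclei in C and 4 of 181 in H. Cyp2e1 UMIs were also found in nuclei of classes not known for it, where C and H differed as well: mesothelial-like nuclei had a thinned share of 31.5% in C and 0.645% in H, and macrophage-like nuclei 27.6% and 0.391%, at median depths of 2040 and 2386 UMIs in C. In macrophage-like nuclei of CCC on chow the share was 5.24% (2.90 to 8.64), below the 12.6% (10.95 to 14.49) of CCH under late HFD. Its interval overlapped that of HC at 7.40% (5.79 to 9.29). The macrophage-like shares of the remaining libraries were 23.9% in CC, 0.930% in HH, 1.38% in HHC and 3.33% in HCH. Progenitor-like nuclei were at 27.2% in C and 0.566% in H, close to the macrophage-like nuclei of the same library. By CPM the progenitor-like level of Cyp2e1 was above the macrophage-like one in 8 of 9 libraries, with an interval clear of 0 in 0 of 9. In H the adipocyte-like share (interval 2.74 to 10.1) lay above the macrophage-like share (0.228 to 0.626), while its interval overlapped that of mesothelial-like nuclei (0.0163 to 3.54). Subtracting the macrophage-like CPM left log2 ratios of −4.50 for H with C and −1.80 for HH with CC. The same subtraction moved HC with CC from −0.69 to −0.19, while it left −2.65 for HCH with CCH and −1.42 for HHC with CCC.

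Maob was at 185 CPM (177 to 192) in C, 71.1 in CC and 64.9 in CCC among the adipocyte-like nuclei of chow libraries, 44.6 (31.1 to 62.0) in H and 58.3 in HH under HFD, 84.6 in HC and 62.0 in HHC back on chow, and 152 in CCH and 80.2 in HCH under late HFD. C and CCH stood apart at the top, and no neighbouring pair from HC down to H differed beyond counting error. The log2 ratio of H with C was −2.05 (−2.58 to −1.57) and that of HCH with CCH −0.92 (−1.21 to −0.63). HH with CC gave −0.29 (−0.60 to 0.02), or −0.69 (−1.01 to −0.37) with clusters matched, and HH with C gave −1.66 (−1.96 to −1.38). HC with CC was 0.25 (0.04 to 0.46) by the gate and −0.14 (−0.37 to 0.09) with clusters matched, so its direction was not fixed. HHC with CCC was −0.07 (−0.40 to 0.26) by the gate, −0.35 (−0.73 to 0.03) with clusters matched and −0.57 (−0.94 to −0.21) with clusters alone. Of the 559 HHC nuclei in adipocyte-named clusters, 274 came from 1 mixed cluster. It was raised in 6 adipocyte and 5 endothelial markers, at a median of 2101 UMIs against 5040 in the other. Every HHC value with clusters alone includes it, and its part in them was not tested. Thinned shares of nuclei with a Maob UMI were 14.9% (13.5 to 16.4) in C and 3.39% (1.25 to 7.23) in H, beside 3.36% (1.46 to 6.52) and 0.645% (0.0163 to 3.54) in mesothelial-like nuclei and 1.53% (0.875 to 2.47) and 0.0921% (0.0251 to 0.236) in macrophage-like nuclei. In H the interval of the adipocyte-like share overlapped that of the mesothelial-like share and lay above that of the macrophage-like share, and by CPM the adipocyte-like level exceeded the mesothelial-like one with an interval clear of 0 in 8 of 8 libraries.

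**Figure D3:**
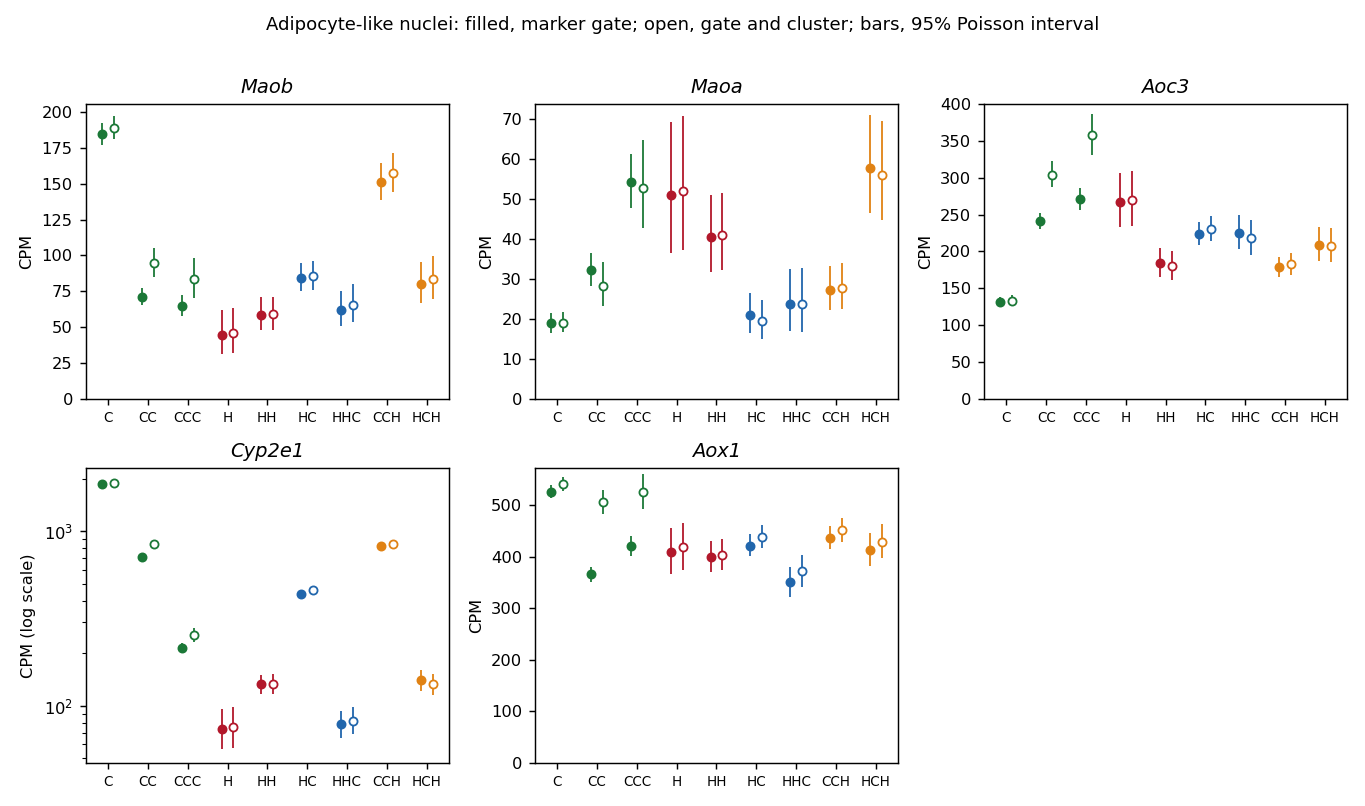
CPM in adipocyte-like nuclei (y axis, log scale for Cyp2e1 and from 0 for the others) in the 9 libraries (x axis); filled points are nuclei of the marker gate, open points those that also lie in an adipocyte-named cluster, bars 95% Poisson intervals, green chow, red HFD, blue chow after HFD, orange late HFD. Cyp2e1 runs from 1862 CPM in C to 73.9 in H, and open and filled points lie apart mainly in CC and CCC.

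Maoa, the partner gene of Maob, ran the other way in some comparisons. Adipocyte-like levels were 18.9 CPM (16.5 to 21.5) in C, 32.2 in CC and 54.1 in CCC on chow, 51.0 (36.4 to 69.4) in H and 40.6 in HH on HFD, 21.0 in HC and 23.7 in HHC after the return to chow, and 27.2 in CCH and 57.8 in HCH at the end of late HFD, with only 39 to 252 UMIs per library. No neighbours in this order differed beyond counting error. The log2 ratio was 1.43 (0.91 to 1.92) in H with C and 1.09 (0.66 to 1.51) in HCH with CCH. HH with CC gave 0.33 (−0.07 to 0.72) by the gate and 0.54 (0.09 to 0.98) with clusters matched, and HH with C gave 1.10 (0.70 to 1.49). HC with CC was −0.62 (−1.01 to −0.23) and HHC with CCC −1.19 (−1.72 to −0.70) by the gate, and −0.55 (−1.02 to −0.09) and −1.16 (−1.76 to −0.59) with clusters matched. In macrophage-like nuclei Maoa was at 36.4 CPM in C, 41.8 in CC and 92.0 in CCC among chow libraries, 55.0 in H and 50.3 in HH under HFD, 51.9 in HC and 43.0 in HHC back on chow, and 61.1 in CCH and 47.9 in HCH under late HFD, with ratios of −1.10 (−1.49 to −0.69) in HHC with CCC, −0.35 (−0.57 to −0.14) in HCH with CCH, 0.60 (0.30 to 0.90) in H with C and 0.31 (−0.77 to 1.65; 7 UMIs in CC) in HC with CC. By macrophage-named clusters alone these were −0.68 (−1.02 to −0.33), −0.17 (−0.37 to 0.04), 1.23 (0.94 to 1.53) and −0.46 (−0.80 to −0.11; 114 UMIs in CC), so the direction of HC with CC was not fixed there. In H only 1711 of the 4453 macrophage-like nuclei lay in such a cluster, so the cluster value of H with C covers a part of them. The macrophage-like level of Maoa was above the adipocyte-like one in 8 of 9 libraries, HCH being the exception, so subtracting it gave no Maoa ratio for any of the 5 comparisons.

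Aoc3 was at 131 CPM (125 to 138) in C, 241 in CC and 271 in CCC among the adipocyte-like nuclei of chow libraries, 268 (233 to 306) in H and 184 in HH under HFD, 224 in HC and 225 in HHC back on chow, and 178 in CCH and 209 in HCH under late HFD. C stood below the other 8 libraries, chow libraries included, and apart from its nearest neighbour, CCH. H with C gave 1.03 (0.81 to 1.23), HH with CC −0.39 (−0.56 to −0.22) and HH with C 0.48 (0.31 to 0.66). HCH with CCH gave 0.23 (0.03 to 0.42) by the gate and 0.19 (−0.01 to 0.39) with clusters matched. Macrophage-like nuclei of CC held Aoc3 at 114 CPM (68.3 to 177), and with the macrophage-like CPM subtracted HH with CC turned to 0.44 and HC with CC to 0.64, so the direction of neither was fixed. HC with CC was −0.11 (−0.23 to 0.01) and HHC with CCC −0.26 (−0.44 to −0.10). With clusters matched, CC and CCC rose to 304 and 358 CPM, and these ratios became −0.76 (−0.94 to −0.58) in HH with CC, −0.40 (−0.53 to −0.27) in HC with CC and −0.72 (−0.91 to −0.52) in HHC with CCC. Gm28156, an antisense gene that overlaps Aoc3 and was looked at after its values were seen, had 5.12 CPM in C, 2.46 in CC and 10.7 in CCC among the adipocyte-like nuclei of chow libraries, 77.7 in H and 85.0 in HH under HFD, 1.99 in HC and 23.7 in HHC back on chow, and 15.2 in CCH and 45.6 in HCH under late HFD. Whether strand was used in counting was not given in the sources used here, so reads of this overlapping pair are uncertain.

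Aox1 varied least. It was at 526 CPM (513 to 539) in C, 365 in CC and 420.4 in CCC among the adipocyte-like nuclei of chow libraries, 409 (366 to 456) in H and 399.5 in HH under HFD, 421 in HC and 351 in HHC back on chow, and 437 in CCH and 413 in HCH under late HFD, and none of the 5 comparisons reached 2-fold. H with C was −0.36 (−0.53 to −0.20) and HCH with CCH −0.08 (−0.22 to 0.05). HH with CC was 0.13 (0.01 to 0.25) by the gate, −0.33 (−0.45 to −0.20) with clusters matched and −0.06 with scaling by trimmed mean of M values (TMM), and HH with C was −0.40 (−0.51 to −0.28). HC with CC was 0.21 (0.11 to 0.30), or −0.21 (−0.31 to −0.11) with clusters matched. HHC with CCC was −0.26 (−0.40 to −0.13) by the gate and −0.50 (−0.65 to −0.34) with clusters matched. With clusters alone, which include the mixed HHC cluster described for Maob, it was −0.68 (−0.83 to −0.54). The ratio by the gate turned to 0.059 with the mesothelial-like CPM subtracted, so its direction depended on that choice. The mesothelial-like level of CCC, 176 CPM, came from 40 nuclei, and mesothelial-like nuclei had an Aox1 median of 86.7 CPM over libraries.

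**Figure D4:**
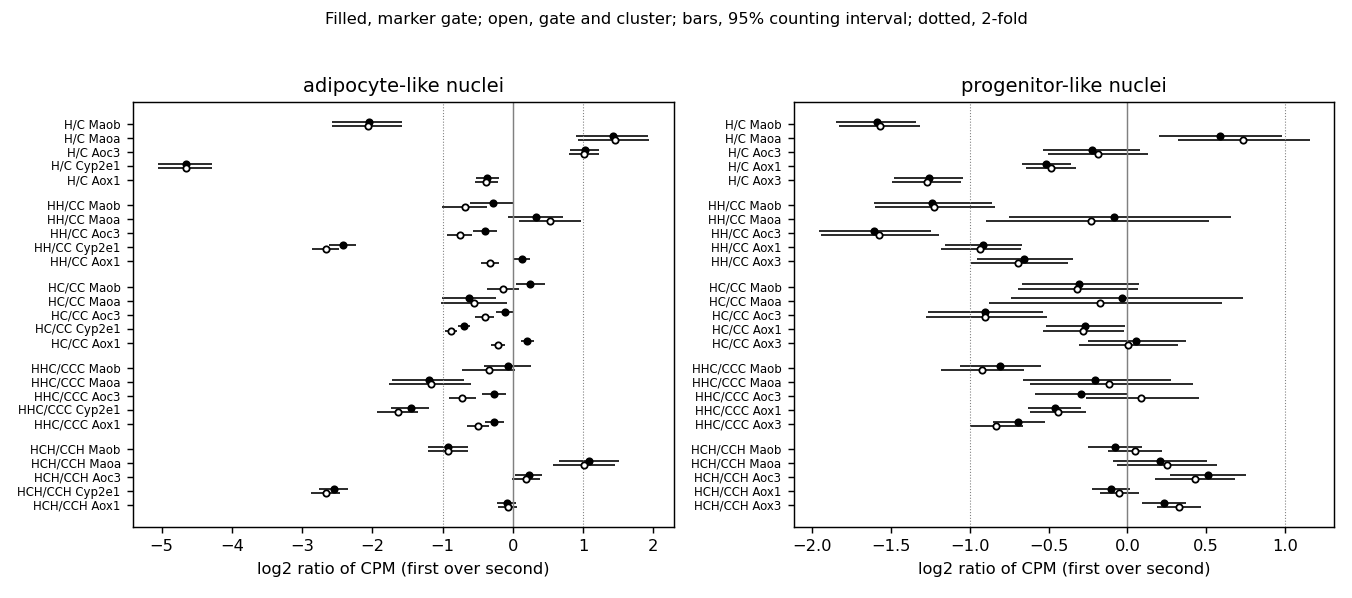
Log2 ratios of CPM (x axis) in adipocyte-like and progenitor-like nuclei for the 5 comparisons, first library over second; filled points are the marker gate, open points gate and cluster, bars 95% counting intervals, dotted lines 2-fold, with Aox3 left out of the adipocyte-like and Cyp2e1 out of the progenitor-like panel. Cyp2e1 in adipocyte-like nuclei lies at or left of −0.69 in all 5 comparisons, and Aox1 in adipocyte-like nuclei lies between −0.50 and 0.21.

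A gene was called when its level differed at least 2-fold between the libraries, and all 6 members had enough UMIs in each comparison, although Aox3 in adipocyte-like nuclei had fewer than 10 UMIs in the first library of 4 of the 5. In adipocyte-like nuclei of H with C, 2 members were lower (Maob and Cyp2e1), where 7.36% of all tested genes were, and 2 were higher (Maoa and Aoc3), where 27.4% were. The median of all genes was itself at 0.25 on the log2 scale in this comparison, and with TMM scaling, which shifts it by −0.44, neither Maoa (0.99, just under) nor Aoc3 (0.59) passed 2-fold. In HH with CC, 2 were lower (Cyp2e1 and Aox3; 19.7% of all genes) and 0 higher (22.3%). In HC with CC, 1 was lower (Aox3; 21.7%) and 0 higher (4.04%). In HHC with CCC, 3 were lower (Maoa, Cyp2e1 and Aox3; 14.9%) and 0 higher (6.11%). In HCH with CCH, 2 were lower (Cyp2e1 and Aox3; 4.97%) and 1 higher (Maoa; 14.1%), which did not pass 2-fold with TMM scaling (0.93) or with clusters alone (0.86). Maob, at −0.92 by the gate, did pass 2-fold lower with TMM scaling, which shifts ratios by −0.153 there, and with clusters alone (−1.025). Each Aox3 call here rests on the low adipocyte-like counts given above (HHC with CCC was at 0.88 with clusters alone), the last on 2 UMIs against 10 with an interval that includes 0, and in HC with CC no member was called lower with clusters matched. Cyp2e1 was past 2-fold in 4 of the 5 comparisons, lower in each. Since measured ratios of these nuclei were in view when the genes were chosen, nothing is read from these counts.

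In progenitor-like nuclei Aox3 was the member with most to read. It was at 107 CPM (98.2 to 116) in C, 149 in CC and 248 (225 to 273) in CCC on chow, 44.7 (39.3 to 50.5) in H and 94.8 in HH on HFD, 155 in HC and 153 in HHC after the return to chow, and 105 in CCH and 123 in HCH at the end of late HFD. CCC was highest and H lowest, each apart from its neighbour, and CC, HC and HHC did not differ in order beyond counting error. The log2 ratio was −1.26 (−1.48 to −1.04) in H with C, −0.66 (−0.96 to −0.34) in HH with CC, 0.06 (−0.25 to 0.37) in HC with CC, −0.69 (−0.86 to −0.53) in HHC with CCC and 0.23 (0.09 to 0.37) in HCH with CCH. HH with C, within a sequencing set but with mice of 31 and 18 weeks, was −0.17 (−0.34 to −0.01). For progenitor-like nuclei that also lay in a progenitor-named cluster, Aox3 gave −0.69 in HH with CC, 0.00 in HC with CC and −0.83 in HHC with CCC. Thinned shares of nuclei with an Aox3 UMI were 9.10% (7.83 to 10.5) in C, 18.1% (15.2 to 21.3) in CCC and 3.60% (2.82 to 4.53) in H, against 0.191%, 1.12% and 0.0230% in macrophage-like nuclei.

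Maob was lower in H than in C in progenitor-like as in adipocyte-like nuclei. Its progenitor-like levels were 93.3 CPM (85.2 to 102) in C, 109 in CC and 108 in CCC among chow libraries, 31.0 (26.6 to 35.9) in H and 46.2 in HH under HFD, 88.3 in HC and 61.5 in HHC back on chow, and 77.3 in CCH and 73.3 in HCH under late HFD. H, HH and HHC were the lowest and each stood apart from the next library above it. The ratio was −1.59 (−1.85 to −1.34) in H with C, −1.24 (−1.61 to −0.86) in HH with CC and −0.81 (−1.06 to −0.55) in HHC with CCC. HC with CC gave −0.31 (−0.67 to 0.08), HCH with CCH −0.08 (−0.25 to 0.09) and HH with C −1.02 (−1.22 to −0.81). With clusters matched, HH with CC was −1.23, HC with CC −0.32 and HHC with CCC −0.92. Progenitor-like nuclei of CC numbered only 208 and carried more adipocyte-marker UMIs than those of any other library, a sum of 1976 CPM for the 8 markers against 165 to 804 elsewhere.

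**Figure D5:**
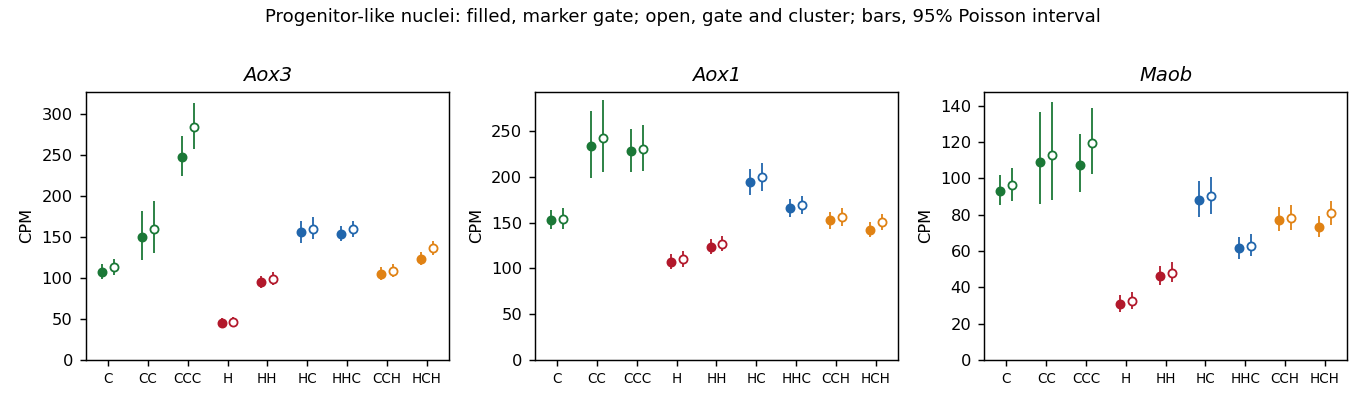
CPM of Aox3, Aox1 and Maob (y axis, from 0) in progenitor-like nuclei of the 9 libraries (x axis); filled points are nuclei of the marker gate, open points those also in a progenitor-named cluster, bars 95% Poisson intervals, colours as diet groups (green chow, red HFD, blue chow after HFD, orange late HFD). H is lowest for all 3 genes, at 44.7, 107 and 31.0 CPM, and CC and CCC are highest for Aox1 and Maob.

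Aox1 in progenitor-like nuclei was at 153 CPM in C, 234 in CC and 228 in CCC on chow, 107 in H and 124 in HH on HFD, 194 in HC and 166 in HHC after the return to chow, and 153 in CCH and 142 in HCH at the end of late HFD. Its ratios were −0.51 (−0.67 to −0.36) in H with C, −0.92 (−1.16 to −0.67) in HH with CC and −0.46 (−0.63 to −0.29) in HHC with CCC, the last 2 being −0.93 and −0.44 with clusters matched, and HH with C was −0.31 (−0.45 to −0.17). HC with CC gave −0.27 (−0.52 to −0.01). With the mesothelial-like CPM subtracted HHC with CCC turned to 0.42, and with the macrophage-like CPM subtracted HC with CC turned to 0.28, so the direction of neither was fixed. In macrophage-like nuclei Aox1 was at 5.96 CPM in HH and 102 in CC (17 UMIs), a difference in the same direction as in progenitor-like nuclei. Its part in the progenitor-like ratio of HH with CC was not tested. For Aox1, Aoc3 and Aox3 the 4 highest progenitor-like levels were those of CC, CCC, HC and HHC. These are the 4 libraries of sequencing set S019, all from mice on standard chow at the end. C, in the other set, was from mice on the low-fat diet, so the set and the diet at harvest cannot be told apart. Aoc3 was at 35.8 CPM in C, 125 in CC and 75.1 in CCC among chow libraries, 30.6 in H and 41.0 in HH under HFD, 66.7 in HC and 61.2 in HHC back on chow, and 32.5 in CCH and 46.3 in HCH under late HFD, and its largest ratio, −1.61 (−1.96 to −1.25) in HH with CC (−1.58 with clusters matched), crossed the sets. HH with C gave 0.20 (−0.08 to 0.47) for Aoc3. The 114 CPM of Aoc3 in macrophage-like nuclei of CC lay close to the progenitor-like level there, and with the macrophage-like CPM subtracted the ratio of HH with CC turned to 1.38. Maoa was at 17.3 CPM in C and 23.4 to 29.6 CPM in the other 8 libraries.

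Past 2-fold in progenitor-like nuclei, 3 members were lower in H with C (Maob, Cyp2e1 and Aox3; 7.0% of all genes) and 0 higher (24.0%). In HH with CC, 3 were lower (Maob, Aoc3 and Cyp2e1; 8.18%) and 0 higher (22.3%). Cyp2e1 alone was lower in HC with CC (8.71%), HHC with CCC (6.02%) and HCH with CCH (1.76%), at levels not apart from those of macrophage-like nuclei beyond counting error, and 0 members were higher in these (9.32%, 11.5% and 19.2%). With clusters alone Aox1 was also past 2-fold lower in HH with CC (−1.10), and with the macrophage-like CPM subtracted Aoc3 was past 2-fold higher in HH with CC (1.38), HC with CC (1.88) and HCH with CCH (1.29). The values against CC have no interval and rest on 19 Aoc3 UMIs in 46 macrophage-like nuclei of CC. That level, 113.5 CPM, was close to the 124.9 CPM of progenitor-like nuclei from which it was subtracted.

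The wider pathway was read in adipocyte-like nuclei from 8 gene lists, and the counts below stand beside the 7.36% of all genes that were lower and 27.4% higher in H with C, and 19.7% and 22.3% in HH with CC. Of the 9 other amine and polyamine oxidases in the matrix, 7 were tested in H with C, where 0 were lower and 4 higher with a median log2 ratio of 1.04, against 0.25 for all genes; in HH with CC 2 of 7 were lower and 1 higher with a median of 0.03, against 0.01. Of genes for amine uptake and conjugation, 0 of 7 were lower and 2 higher in H with C (median 0.14), and 2 of 10 lower and 4 higher in HH with CC (median 0.57). The aldehyde dehydrogenases, which take up the aldehydes that amine oxidases release, had 0 of 12 lower and 2 higher in H with C (median −0.09) and 1 lower and 1 higher in HH with CC (median −0.17). The cytochrome enzymes related to Cyp2e1 and their electron donors had 1 of 20 lower and 2 higher in H with C (median 0.43) and 5 lower and 1 higher in HH with CC (median −0.15), beside −4.66 and −2.42 for Cyp2e1 itself.

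Among flavin monooxygenases 1 of 5 was lower and 0 higher in H with C (median −0.14) and 3 lower and 1 higher in HH with CC (median −1.14). Fmo2 met the naming rule: it was at 28.2 CPM in C, 92.2 in CC, 5.10 in H and 12.2 in HH, with log2 ratios of −2.47 (−4.35 to −1.10) and −2.92 (−3.60 to −2.31), but it stood at 392 CPM in progenitor-like nuclei of C, and HH with CC became −1.92 with clusters matched. The molybdenum enzymes and genes of cofactor synthesis had 1 of 9 lower and 2 higher in H with C (median −0.48) and 2 of 10 lower and 3 higher in HH with CC (median −0.10). Xdh, which encodes the xanthine oxidoreductase related to the aldehyde oxidases, was at 726 CPM in C, 484 in CC, 259 in H and 239.5 in HH, log2 ratios of −1.49 (−1.70 to −1.29) and −1.02 (−1.16 to −0.87). Its level in macrophage-like nuclei was 595 CPM in C and 398 in H, so the macrophage-like level moved in the same direction.

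Xenobiotic conjugation genes had 3 of 15 lower and 6 higher in H with C (median 0.59) and 4 of 16 lower and 5 higher in HH with CC (median 0.33). Gsta3, a glutathione transferase, was at 244 CPM in C and 63.7 in H (log2 ratio −1.94; −2.37 to −1.53) and at 209.5 CPM in CC and 65.0 in HH (−1.69; −1.97 to −1.42). Ephx2, the soluble epoxide hydrolase, was higher in both, at 169 CPM in C and 409 in H (1.28; 1.10 to 1.45) and at 107 CPM in CC and 429.5 in HH (2.01; 1.86 to 2.15). Gstt1 was lower on few UMIs, 7 in H and 24 in HH (−1.23 and −2.02). Of the genes for hydrogen peroxide removal, 1 of 12 was lower and 2 higher in H with C (median 0.25), and likewise 1 lower and 2 higher in HH with CC (median 0.08). Prdx5 and Gpx1, peroxidases inside the cell, were the higher ones, by 3.78 (3.19 to 4.37) and 1.78 (1.50 to 2.05) in H with C and by 1.67 and 1.40 in HH with CC. Gpx3, a secreted peroxidase, was the lower one, by −2.11 (−3.18 to −1.23) and −1.27 (−1.71 to −0.86), the second being −0.50 with clusters matched. Gpx1 was as high in macrophage-like nuclei (209 CPM in H) as in adipocyte-like nuclei (177 CPM). Prdx5 was at 4.46 CPM in C and 61.2 in H in adipocyte-like nuclei, and its macrophage-like level also went up, from 3.71 to 19.3 CPM. In HC with CC and HHC with CCC, 24 and 16 of the 90 list genes tested were lower (21.7% and 14.9% of all genes) and 0 and 3 higher (4.04% and 6.11%). In HCH with CCH 1 of 77 was lower (4.97%) and 14 higher (14.1%).

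The likeness of levels over the 9 libraries was measured by Pearson's r of log2(CPM + 1) in adipocyte-like nuclei among 6884 genes; the points share libraries, ages and the gate, so r is a description. The genes most like Cyp2e1 were Sox6 (r = 0.963), Btbd8 (0.936) and Gsta3 (0.936), the glutathione transferase described above. Those most like Maob were Lin52 (0.982), Pcdh7 (0.966) and Jarid2 (0.965). Dnajb12 (0.956), Sptlc2 (0.949) and Dnase1l1 (0.947) were most like Aoc3. Pigp (0.959), Rbx1 (0.940) and Marveld1 (0.936) were most like Maoa, and Plekha3 (0.921), Elavl1 (0.901) and Hipk2 (0.893) were most like Aox1. Between members, Maob and Cyp2e1 had r = 0.861 and Maob and Aoc3 had r = −0.816.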

How the data were processed

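Nuclei were isolated from frozen epididymal adipose tissue and sequenced with 10x Genomics 3′ chemistry. The authors aligned the reads with Cell Ranger 6.1.2 to mm10, introns included, and deposited raw UMI counts (unique molecular identifiers, 1 per captured RNA molecule) for the barcodes called as cells. Totals were 22599619 to 66615262 UMIs per library. By the methods of the study free RNA was estimated and not corrected.

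From these counts, the study's own limits were applied: a nucleus needed 500 to 3000 genes and no more than 40000 UMIs. Scrublet, run in scanpy 1.11.5 under Python 3.11.15, scored doublets in each library with 0.8% assumed for every 1000 nuclei. If it marked under 0.5% by itself, the top scores were dropped up to the assumed share. Class totals exclude Malat1 and mitochondrial genes. A nucleus was put in a class, named "-like", when at least 3 of the 8 markers of that class had a UMI and at least 2 more than of any other class. UMIs were summed per library and class and given as CPM. Leiden clusters (leidenalg 0.10.2, resolution 1), made without the members and pathway genes, were an alternative, as were TMM factors (edgeR 4.0.16, R 4.3.3), other gates, no gene limit, no doublet removal and subtraction of the CPM of another class.

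Libraries were grouped by the sample labels, which give 1 library per diet group, so no test was made. Intervals cover counting error only. A gene was tested against the 2-fold rule with at least 10 UMIs seen in, or expected for, one of the libraries compared; a count of 0 was set to a floor of 3 UMIs. Likeness was taken among genes with a median of at least 20 CPM. Pathway genes were named when they had at least 20 CPM in a chow library and passed 2-fold in the same direction in H with C and HH with CC, at most 4 per list. The members and lists were chosen with earlier results of these data known. The calculations were checked on simulated data. Sequences come from RefSeq and coordinates from GENCODE vM21.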

Additional observations from a re-analysis of the deposited data

Results flagged for a closer look

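Aoc3 in adipocyte-like nuclei was higher in H with C, by a log2 ratio of 1.03, and lower in HH with CC, by −0.39, each with a counting interval clear of 0. The difference between these ratios was not tested, since each group had 1 library. The controls C and CC also differed in age, sequencing set and diet at harvest. With the macrophage-like CPM subtracted HH with CC turned to 0.44, and with TMM scaling Aoc3 in H with C was below 2-fold. HH with C, within a sequencing set but with mice of 31 and 18 weeks, was 0.48 (0.31 to 0.66).

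Aox1 in adipocyte-like nuclei pointed both ways in 2 pairs of comparisons, also untested. It was −0.36 in H with C and 0.13 in HH with CC, and 0.21 in HC with CC and −0.26 in HHC with CCC. The positive values of both pairs rest on CC and changed sign where clusters had to match (−0.33 in HH with CC and −0.21 in HC with CC). The −0.26 of HHC with CCC also changed sign, to 0.059, with the mesothelial-like CPM subtracted.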

How the results depend on the processing

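Each value was recomputed under 1 changed choice at a time. Of the medians and shares over libraries, 95 stayed the same and 85 moved, with runs that left out 1 library among them. Of the detection shares, 68 stayed the same and 16 moved. Of the log2 ratios in adipocyte-like nuclei, 207 moved by less than the counting error, 48 moved further and 11 reversed. In progenitor-like nuclei these numbers were 219, 22 and 4. A reversal was counted only for a ratio with an interval clear of 0 by the gate; those found involve CC or CCC, and the cause was not tested. Among ratios whose interval includes 0, signs changed elsewhere too, such as Aox3 in adipocyte-like nuclei of HCH with CCH, from −1.13 by the gate to 1.96 (0.06 to 4.14) with clusters and 0.18 with gate and clusters. In adipocyte-like nuclei, Aox1 in HH with CC became −0.059 with TMM scaling, −0.001 with the stricter gate and −0.33 with clusters, alone or with the gate. With clusters, alone and with the gate, HC with CC became −0.13 and −0.14 for Maob and −0.22 and −0.21 for Aox1. Aox3 in HHC with CCC became 0.88 with clusters, which include the mixed HHC cluster. Subtracting the macrophage-like CPM, an alternative chosen after seeing the data, turned Aoc3 in HH with CC to 0.44, and subtracting the mesothelial-like CPM turned Aox1 in HHC with CCC to 0.059. In progenitor-like nuclei the macrophage subtraction gave Aoc3 ratios of 1.38 in HH with CC and 1.88 in HC with CC and an Aox1 ratio of 0.28 in HC with CC, and the mesothelial subtraction gave Aox1 0.42 in HHC with CCC. The level subtracted came from only 46 macrophage-like nuclei in CC and 40 mesothelial-like nuclei in CCC, and the ratios after subtraction have no interval.

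Counts of members past 2-fold moved as follows. A member that a subtraction left at or below 0 in either library had no ratio and was not counted. A drop under subtraction can therefore be a lost value and not a smaller ratio. With the macrophage-like CPM subtracted this held in adipocyte-like nuclei for Maoa in every comparison. It also held for Aox3 in H with C, HC with CC, HHC with CCC and HCH with CCH. In adipocyte-like nuclei, the 2 higher members of H with C became 0 with TMM scaling and 1 without the gene limit, with each nucleus at the same weight and with either subtraction. The 1 higher member of HCH with CCH became 0 with TMM scaling, clusters and either subtraction. The 1 lower member of HC with CC became 0 with clusters, with gate and clusters and with macrophage subtraction. The 3 lower members of HHC with CCC became 1 with either subtraction and 2 with the looser gate and with clusters, alone or with the gate. The 2 lower members of HCH with CCH became 1 without the gene limit, with the stricter gate, with gate and clusters and with macrophage subtraction. With TMM scaling Maob passed 2-fold lower there as well, beside Cyp2e1 and Aox3. With clusters alone the count stayed at 2, but Maob (−1.025) took the place of Aox3. In progenitor-like nuclei, the 1 lower member became 2 in HC with CC with the looser gate and with clusters and 2 in HHC with CCC with clusters, and became 0 in HCH with CCH with either subtraction. The 3 lower members there of HH with CC became 4 with the looser gate and with clusters and 2 with macrophage subtraction, and those of H with C became 2 with mesothelial subtraction. Higher members were not recounted in progenitor-like nuclei, where macrophage subtraction put Aoc3 past 2-fold higher in HH with CC, HC with CC and HCH with CCH. Mesothelial subtraction gave no value against CC, which had 15 such nuclei. No paired analysis was possible because each group had 1 library. The smallest depth lay behind Aox3 and Maoa in adipocyte-like nuclei.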
